A study of Mus musculus with 8 samples.

Results

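Regions enriched in SMAD4-chromatin complexes were mapped around 8 genes of the Notch pathway in mouse limb buds: the receptors Notch1 and Notch2, the Jagged ligands Jag1 and Jag2, and the transcriptional effectors Hes1, Hey1, Hey2 and Heyl. The genes were taken by name, as 8 of the 22350 protein-coding genes of the mm9 annotation (GENCODE vM1, chromosome Y and mitochondria left out). Every peak whose centre lay within 100 kb of the 5′ end of one of them was counted as a peak of that gene. This gave 12 peaks at E9.5 and 18 peaks at E10.5. Distances are given from the 5′ end to the peak centre and are positive in the direction of transcription. All coordinates are mm9.

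The study used ChIP-seq to map SMAD4, the shared partner of the SMADs that act downstream of BMP and TGFβ ligands, at 2 stages of limb bud development. All samples were of strain NMRI with the genotype labelled Smad4Flag, in which the Smad4 locus carries a 3xFLAG epitope (homozygous Smad4 3xF/3xF), and chromatin was precipitated with the M2 anti-FLAG antibody. The E9.5 group consisted of forelimb buds with the attached trunk, about 80 embryos pooled per replicate, which the protocol dates to E9.75. The E10.5 group consisted of fore- and hindlimb buds, about 100 embryos pooled per replicate, by the tissue label and the protocol, whereas every sample has forelimb bud as its source name. Each stage had 2 ChIP samples and 2 input DNA samples, so 8 samples in all, and 1 merged peak list was available per stage. Ectoderm and mesenchyme were not separated, and by these labels the tissue changed together with the stage, so that stage and tissue cannot be told apart. Since ChIP-seq gives no transcript levels, the tissue could not be checked against marker genes.

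Notch receptors are cleaved when they bind Delta or Jagged ligands on a neighbouring cell. The freed intracellular domain enters the nucleus, joins the DNA-binding protein RBPJ and turns on genes of the Hes and Hey families, which encode bHLH repressors. In the early embryo the pathway sets the rhythm of somite formation in the trunk and acts in vessels. In the limb bud, Jag2 is known from the apical ectodermal ridge and Jag1 from the mesenchyme.

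In all, 2073 peaks were listed at E9.5 (median width 1244 bp) and 6185 at E10.5 (median width 2552 bp). Scores had medians of 56.3 and 59.8. The score is the authors' value per peak, with no unit named in the lists, and it is taken here to grow with the confidence of the peak call. By the study's methods, a merged peak kept the best MACS p-value of its overlapping calls, so a score probably reflects the better replicate alone. The depth of the libraries is unknown, and the replicates had been merged before any value used here, so no error between replicates can be given. Scores were therefore compared by rank within a list (1 is the best) and by the share of the list at or above that rank, called top percent. No test was made: the values below describe these 2 lists. A gene with no listed peak is not shown to be unbound, and a peak near a gene is not shown to regulate it.

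Peaks were found near 6 of the 8 genes at each stage, but not near the same 6. At E9.5 these were Notch2, Jag1, Jag2, Hes1, Hey1 and Heyl, where 20.5% of all protein-coding genes had a peak. At E10.5 they were Notch1, Jag1, Jag2, Hes1, Hey1 and Hey2, where 52.9% of all protein-coding genes had one. With all listed peaks, the share of the 8 genes was thus further above the genome-wide share at E9.5 than at E10.5. When only peaks with a score of 100 or more were counted, this order turned in percentage points but not as a ratio. Then 2 of the 8 genes had a peak at E9.5, against 3.04%, and 4 at E10.5, against 8.77%. Jag1, Jag2, Hes1 and Hey1 had peaks at both stages, which held for 14.7% of protein-coding genes. Jag1, Hes1 and Hey1 had a pair of overlapping E9.5 and E10.5 peaks, against 5.52% of protein-coding genes.

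The 5′ ends of Jag1, Hes1 and Hey1 lay inside a peak at E9.5, against 2.11% of protein-coding genes. At E10.5 the 5′ end of Hey2 was covered as well, giving 4 of 8 genes against 11.3%. Coverage at both stages held for 3 of the 8 genes and for 1.1% of protein-coding genes. Among the 8 genes, SMAD4 peaks thus lay on the starts of 1 ligand and 3 effectors, and not on those of Notch1, Notch2, Jag2 or Heyl. This was not a division by class across the pathway. The 5′ end of the receptor Notch3 was covered at both stages, and that of none of the 6 other ligands and 5 other Hes genes.

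**Figure D1:**
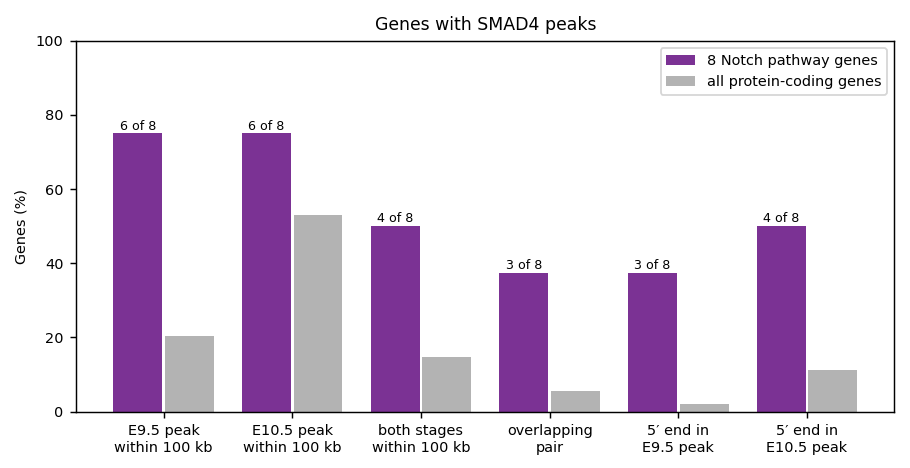
Share of genes (%, linear axis from 0) with SMAD4 peaks, for the 8 Notch pathway genes (purple, with their number) and all 22350 protein-coding genes (grey). The purple bar is higher in each of the 6 comparisons, with the smallest ratio for an E10.5 peak within 100 kb (6 of 8 against 52.9%).

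Among the 12 peaks at the earlier stage, 5 (41.7%) shared at least 1 bp with a later peak, where 18.7% of the whole list did. Of the 18 later peaks, 4 (22.2%) shared sequence with an earlier one, where 6.26% of the whole list did. Adjoining peaks of the single gene Hes1 made up 3 of these 5 earlier peaks and some of these 4 later ones. The others were at Jag1 and Hey1. Scores of the genes' peaks had a median of 63.1 (E9.5) and 67.8 (E10.5), and their median top percent was 33.2 and 33.0. Scores of 100 or more were reached by 3 of the 12 and by 5 of the 18 peaks. In the whole lists this held for 10.0% and 8.44% of peaks. The peaks near the 8 genes were also wide, with a median of 2126 bp (538 to 4529) at E9.5 and 4206 bp (1373 to 7905) at E10.5.

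Not all of these peaks were nearest to the gene they were counted for. One of the 8 genes was the nearest protein-coding gene for 8 of the 12 earlier and 9 of the 18 later peaks. Within 5 kb of the 5′ end lay 6 earlier and 5 later peaks, which belonged to Notch2, Jag1, Hes1, Hey1 and Hey2. The share of the whole lists within 5 kb is not given here, so these counts describe position only. The paper places a large part of the E9.5 list, and most of the E10.5 list, close to transcript starts. Counted by gene, 4 of the 8 had a peak within 10 kb at each stage, against 3.6% and 16.6% of protein-coding genes.

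**Figure D2:**
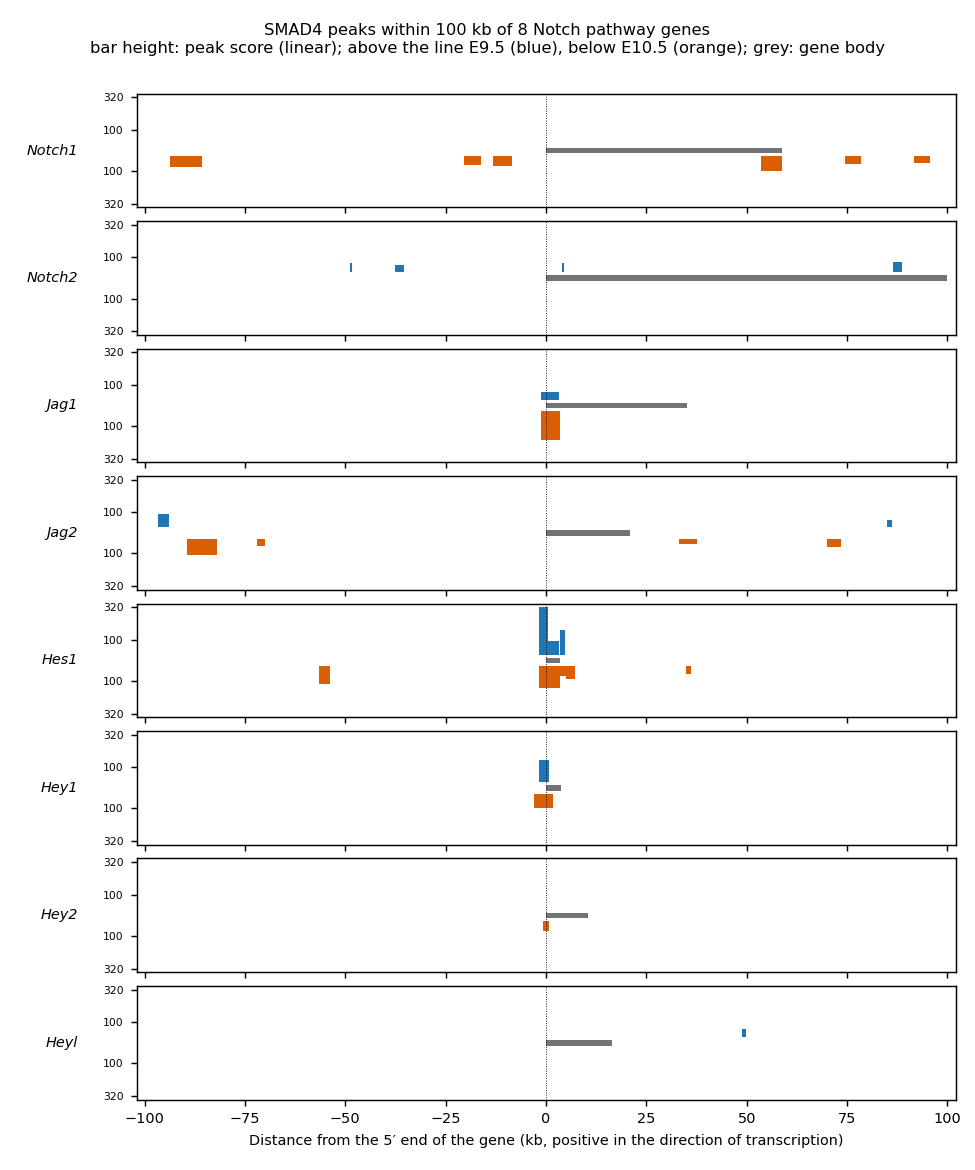
SMAD4 peaks around the 5′ ends of the 8 genes; the horizontal axis is the distance in kb (positive in the direction of transcription), bars show the extent of a peak and its score on a linear axis, E9.5 above the line in blue and E10.5 below it in orange, and grey bars are the gene bodies (Notch2 is longer and is drawn up to 100 kb). Peaks of both stages meet at the starts of Jag1, Hes1 and Hey1, the 6 peaks of Notch1 are all from E10.5, and the 4 peaks of Notch2 are all from E9.5.

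The receptors showed opposite patterns. Notch1 (ENSMUSG00000026923.8, chr2:26313423-26372183, minus strand) encodes the receptor used in somites, vessels and limb ectoderm, and it had no peak at E9.5. The nearest E9.5 peak lay at -370.8 kb, with a score of 54.8. At E10.5 Notch1 had 6 peaks, a number reached or passed by 168 protein-coding genes. Of these 168 genes, 108 also had no E9.5 peak, and across all genes with an E10.5 peak 72.3% had none at E9.5.

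The best of the Notch1 peaks, at chr2:26313496-26318546, had a score of 101 and rank 509 (top 8.23%). It lay 56.2 kb from the 5′ end, with its centre in a coding exon close to the 3′ end of the gene, and the nearest protein-coding start was that of Sec16a, 15.3 kb away. A pair of peaks lay upstream between Notch1 and the next gene. The first, at chr2:26380700-26385346 and -10.8 kb, had a score of 65.4 and rank 2296. The other, at chr2:26388335-26392688 and -18.3 kb, had a score of 58.5 and rank 3342. These were the peaks for which Notch1 itself was the nearest gene.

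The remaining 3 peaks counted for Notch1 were closer to other genes. The peak at chr2:26457958-26465862 had a score of 71.8 and lay 1.97 kb from the start of Agpat2. The peak at chr2:26293604-26297661, with a score of 50.8, had its centre in a coding exon of Sec16a. The last one, at chr2:26276615-26280419, had a score of 42.6 and lay in an intron of Sec16a, 13.8 kb from the start of Inpp5e.

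Notch2 (ENSMUSG00000027878.9, chr3:97817461-97954290, plus strand) encodes the other receptor, and it had 4 peaks at E9.5 and none within 100 kb at E10.5. Only 16 protein-coding genes (0.0716%) had 4 or more E9.5 peaks, and 2 of these 16 had no E10.5 peak. The best-scored one, at chr3:97903935-97906016, lay in an intron 87.5 kb from the 5′ end, with a score of 66.3 and rank 564 (top 27.2%). The nearest protein-coding start to it was Adam30, 59.8 kb away. Another intronic peak, at chr3:97821503-97822040 and 4.31 kb from the 5′ end, had a score of 59.9 and rank 811.

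Upstream of Notch2, the peak at chr3:97768541-97769209 (-48.6 kb) had a score of 59.5, and the peak at chr3:97779821-97782096 (-36.5 kb) had a score of 51.4. None of the 4 peaks reached a score of 100 and none overlapped an E10.5 peak. The nearest E10.5 peak had its centre 133.3 kb from the 5′ end, which is still inside this long gene (136.8 kb), with a score of 53.2 and rank 4427. The absence of E10.5 peaks from the counts therefore holds for the 100 kb around the start and not for the whole gene. Of all protein-coding genes with an E9.5 peak, 28.6% had no E10.5 peak within 100 kb.

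The best-scored Notch2 peak held a pair of RBPJ words, GTGGGAA, in opposite orientation (capitals), with 14 bases between them, at chr3:97904514-97904543 (plus strand):

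Notch2 intron: aGTGGGAAgcctccggagccgtTTCCCACc

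An inverted pair of this word with at most 20 bases between was found in the central 1000 bp of 2 of all 2073 peaks at E9.5 (0.0965%), whereas none of the 6185 at E10.5 held one. In the central 300 bp it was found in 0 peaks of either list, the Notch2 peak included. This arrangement was looked at after the words in the peaks had been seen.

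Of the ligands, Jag1 was covered at its start at both stages. Jag1 (ENSMUSG00000027276.7, chr2:136907192-136942380, minus strand) had 1 peak per stage, and no other protein-coding gene started within 100 kb. The E9.5 peak at chr2:136939082-136943610 had a score of 52.7 and rank 1350 of 2073 (top 65.1%). The E10.5 peak at chr2:136938833-136943597 had a score of 191.3 and rank 52 of 6185 (top 0.841%). Both covered the same stretch: they overlapped by 4516 bp, or 99.7% of the earlier and 94.8% of the later peak, and their centres lay 131 bp apart.

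The Jag1 interval thus stood in the lower part of the E9.5 list and near the top of the E10.5 list. The difference in top percent (E10.5 minus E9.5) was -64.3 points, and one at least as low was found in 13 of the 390 overlapping pairs of the whole lists. Over all pairs the median difference was -0.52 points and 207 of 390 had a negative one. Such differences depend on the lengths of the lists. With the E10.5 list shortened to its 2073 best-scored peaks, which kept 246 of the pairs, the difference at Jag1 was -62.6 points, and 7 of the 246 were at least as low. Of the 2 copies of the SMAD word CAGACC in each Jag1 peak, both outside the central 300 bp, 1 lay in the promoter (capitals), at position -82 bp from the 5′ end (chr2:136942448-136942477, minus strand):

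Jag1 promoter: agtcccggctccCAGACCggcgctccgggt

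Jag2 differed from Jag1 in that its nearest peak lay 35.4 kb from its start. Jag2 (ENSMUSG00000002799.5, chr12:114146801-114167706, minus strand) stands in a gene-dense region, with 6 other protein-coding starts within 100 kb, and all 6 of its peaks were nearer to another gene. At E9.5 the peak at chr12:114261735-114264380 had a score of 89.5 and rank 265 and lay in an intron of Pacs2. The other E9.5 peak, at chr12:114081616-114082671, had a score of 50.1 and lay 14.5 kb from the start of Cdca4.

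At E10.5 the best peak counted for Jag2, at chr12:114249548-114257193, had a score of 112 and rank 323 (top 5.22%) and lay 0.652 kb from the start of Pacs2. It did not overlap the E9.5 peak in the same gene. The peak at chr12:114094269-114097769 (score 54.8) was nearest to Gpr132, and the peak at chr12:114237677-114239633 (score 52.0) had its centre in a UTR of Brf1. The peak closest to Jag2, at chr12:114130100-114134469 and 35.4 kb from its 5′ end, had a score of 35.6 and rank 6071 of 6185, near the bottom of the list, and its nearest gene was Gm17723.

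**Figure D3:**
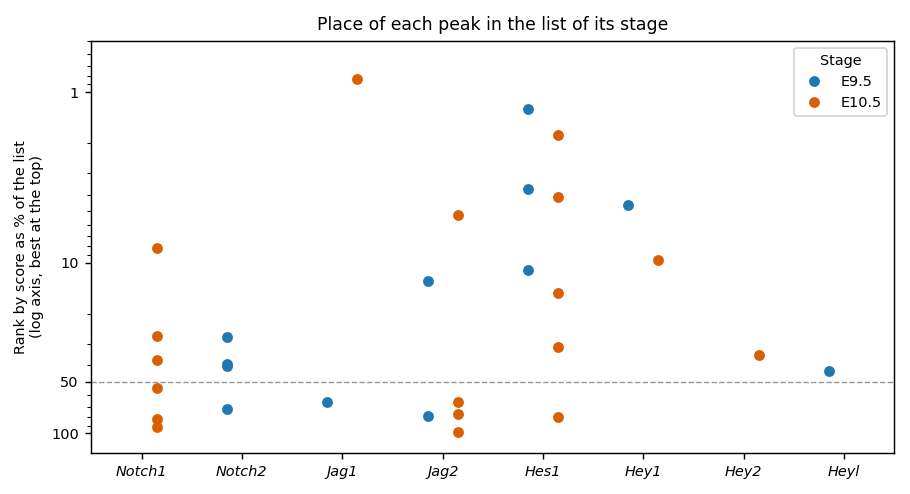
Rank of each peak as a percentage of the list of its stage (log axis, best at the top; dashed line, 50%), by gene, with E9.5 in blue and E10.5 in orange; each point is 1 peak. The best-placed peaks are those of Jag1 at E10.5 (0.841%) and Hes1 at E9.5 (1.25%).

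Of the effectors, Hes1 carried the densest group of peaks. Hes1 (ENSMUSG00000022528.7, chr16:30064470-30067882, plus strand), which encodes the repressor best known from the oscillations of the somite clock, had 3 peaks at E9.5 and 5 at E10.5. At E9.5, 0.461% of protein-coding genes had 3 or more peaks, and at E10.5, 2.28% had 5 or more. No other protein-coding gene started within 100 kb. The 3 E9.5 peaks followed each other across the gene with short gaps and overlapped 2 of the E10.5 peaks in 3 pairs. That number of pairs was reached by 15 protein-coding genes (0.0671%). These counts depend on where the peak calls were split, as the first 2 E9.5 peaks fell in a single E10.5 peak.

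The start of Hes1 is here the 5′ end of its gene model, which need not be the start of its coding transcript. The peak over that 5′ end, at chr16:30062776-30064945, had a score of 319.6 and rank 26 at E9.5 (top 1.25%), the best rank among the 12 E9.5 peaks. The next one, within the gene at chr16:30065004-30067794, had a score of 95.1 and rank 230. The third, just downstream of the gene at chr16:30067931-30069228, had a score of 169.9 and rank 77. At E10.5 a single peak of 5141 bp, at chr16:30062751-30067891, spanned the first 2 of these intervals, with a score of 150.4 and rank 110 (top 1.78%).

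The downstream interval was listed at both stages, with a lower place at E10.5. Its E10.5 peak, at chr16:30067956-30069469, had a score of 68.9 and rank 1933, so that it stood in the top 3.71% at E9.5 and the top 31.3% at E10.5. A difference at least as high as this one (27.5 points) was found in 76 of the 390 pairs. Against the shortened E10.5 list it was 89.5 points, the highest of the 246 pairs kept, since rank 1933 then lies near the end of the list. An adjoining peak at chr16:30069563-30071672, 6.15 kb from the 5′ end, was listed at E10.5 only, with a score of 85.4 and rank 929. The 2 remaining E10.5 peaks were distal. The one at chr16:30007922-30010764 and -55.1 kb had a score of 119 and rank 255, and the start of Gm1968 lay 47.0 kb from it. The one at chr16:30099281-30100653, 35.5 kb downstream of the 5′ end, had a score of 51.3.

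By the summed ranks of its members, the pair over the Hes1 start took place 23 of the 390 overlapping pairs, and the other Hes1 pairs took places 59 and 199. The gene most like Hes1 in the ranks of its best peaks, among 3274 genes with peaks at both stages, was Arid2 (ranks 32 and 107, both peaks within 1 kb of its start), which encodes a subunit of a chromatin remodelling complex. It was followed by 5 genes tied because they share a single pair of peaks with ranks 33 and 142 (Zc3h6, Zc3h8, Ttl, Gm10762 and Gm14025). Likeness was the summed absolute difference in log2 rank, 0.34 for Arid2 and 0.71 for the tied genes, over the 2 lists.

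Hey1 (ENSMUSG00000040289.3, chr3:8663362-8667039, minus strand), which encodes a bHLH repressor related to Hes1, had 1 peak per stage, both over its start, with no other protein-coding start within 100 kb. The E9.5 peak at chr3:8666376-8668686 had a score of 151 and rank 95 (top 4.58%). The E10.5 peak at chr3:8665388-8670122 had a score of 96.3 and rank 600 (top 9.70%), and it contained the whole of the E9.5 peak. The pair took place 93 of 390. Hes1 and Hey1 were the only genes of the 8 with an E9.5 peak of score 100 or more, against 3.04% of protein-coding genes. At E10.5 such a peak was found for Notch1, Jag1, Jag2 and Hes1, against 8.77%.

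Hey2 (ENSMUSG00000019789.8, chr10:30552165-30562607, minus strand), known for its part in heart and vessel development, had no E9.5 peak nearer than the one at -832 kb. Its E10.5 peak at chr10:30561782-30563445 lay squarely on the start, with its centre at -0.0065 kb, a score of 66.8 and rank 2151 (top 34.8%). Heyl (ENSMUSG00000032744.4, chr4:122910799-122927118, plus strand), the remaining member of the Hey family, had a single E9.5 peak at chr4:122959657-122960502, 49.3 kb from its 5′ end in a UTR of Pabpc4, with a score of 58.7 and rank 889. The nearest E10.5 peak, with a score of 92.1 and rank 727, had its centre 108.4 kb away and was left out by the distance of 100 kb.

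That peak of Heyl was 1 of those just outside the distance. At E10.5, peaks at -101.7 kb (score 56.0) and -115.8 kb (score 62.7) from Notch1 and at -101.6 kb (score 58.2) from Jag2 were also left out, as was an E9.5 peak 120.6 kb from Hes1 (score 52.8). Just inside it at E9.5 were the peaks of Jag2 at -95.4 kb (score 89.5) and 85.6 kb (score 50.1) and the best-scored peak of Notch2 at 87.5 kb (score 66.3). At E10.5 those of Notch1 at 93.7 kb (score 42.6) and -89.7 kb (score 71.8) and of Jag2 at -85.7 kb (score 112) were just inside. With a distance of 200 kb, peaks were found near 6 of the 8 genes at E9.5 and near all 8 at E10.5, against 34.5% and 67.6% of protein-coding genes. With 10 kb, 4 genes had a peak at each stage, against 3.6% and 16.6%.

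The sequences under the peaks were searched on both strands for short words bound by the factors of the BMP and Notch pathways. For SMADs these were CAGAC, its extension CAGACC, the palindrome GTCTAGAC, the GC-rich palindrome GGCGCC, and GGCGCC followed by any 5 bases and GTCT. For RBPJ they were TGGGAA and the longer GTGGGAA that contains it, and for HES and HEY repressors CACGTG and CACGCG. In the central 300 bp, CAGAC was found in 6 of 12 earlier and 8 of 18 later peaks, against 60.6% and 53.2% of all peaks. CAGACC was found in 2 of 12 and 4 of 18, against 20.9% and 19.7%, so neither word was in a clearly larger share of these peaks than of the lists. GGCGCC was found in 4 of the 12 and 3 of the 18, against 12.6% and 13.1%. The GTCTAGAC palindrome was in none of the peaks of these genes, against 1.21% and 0.42% of all peaks, and the same held for the composite word, against 0.193% and 0.113%.

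The RBPJ word GTGGGAA lay in the central 300 bp of 3 of the 12 E9.5 peaks (Hes1, Hey1 and Notch2), against 8.10% of the list. At E10.5 it lay in 3 of 18 (Hes1, Hey2 and Jag2), against 6.84%. The shorter TGGGAA was found in 6 peaks at each stage, against 27.4% and 23.9%. CACGTG was found in 1 peak at E9.5 (Notch2) and in none at E10.5, against 5.69% and 5.03%. CACGCG was found in 2 peaks at each stage, against 6.46% and 7.83%. The central windows of the peaks had a GC content close to that of the lists (medians of 52.5% against 53% at E9.5 and 57.3% against 55% at E10.5) but more CpG dinucleotides (a median of 8.5 against 5 at E9.5, and again above the list's median of 7 at E10.5). GC-rich words such as GGCGCC depend on this composition, and its part in the counts was not tested.

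The sites at the starts of Hes1, Hey1 and Hey2 and within Hes1 are printed because these stretches lie inside SMAD4 peaks and hold an RBPJ, SMAD or HES/HEY word. In the 300 bp promoters (250 bp before to 50 bp after the 5′ end), GTGGGAA was present in Notch1, Hey1 and Hey2, against 5.88% of protein-coding genes. Hey2 had 2 copies, as did 0.206% of genes. Hes1 was the only 1 of the 8 with CACGTG (7.79% of genes), Hey1 the only one with GGCGCC (14.3%). The other HES/HEY word, CACGCG, was present in 4 of the 8 promoters (Notch2, Jag1, Jag2 and Hey1), against 11.7% of genes, and CAGAC in 3 of 8 (Notch1, Jag1 and Heyl), against 48.5%. CAGACC was present in Notch1, Jag1 and Heyl (16.4%). No peak covered the promoters of Notch1 and Heyl. The Hes1 promoter window held no GTGGGAA, but the Hes1 peaks of ranks 230 (E9.5) and 110 (E10.5) each held 4 copies further into the gene. Of these, 1 lay 0.878 kb from the 5′ end, close to a TGGGAA at 0.8925 kb.

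In the lines that follow the words are in capitals, read 5′ to 3′ on the strand of the gene, where TTCCCAC and GGTCTG are GTGGGAA and CAGACC on the other strand. The Hey1 sites lie at chr3:8667004-8667033 (21 bp from the 5′ end, in the UTR) and chr3:8667111-8667140 (-86 bp). The Hey2 sites lie at chr10:30562576-30562605 (17 bp from the 5′ end, in the UTR) and chr10:30562779-30562808 (-186 bp). The Hes1 sites lie at chr16:30064416-30064445 (-40 bp from the 5′ end) and chr16:30066455-30066484 (1996 bp from it, in an exon of a non-coding Hes1 transcript).

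Hey1 RBPJ word: aaggggcgcagcGTGGGAAagggatggttg
Hey2 RBPJ word: ctgggctgcagcGTGGGAAagaacctccag
Hey2 upstream RBPJ word: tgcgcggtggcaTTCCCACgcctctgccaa
Hey1 SMAD word: tctgcgcagcgaGGCGCCaattggccgggg
Hes1 HES/HEY word: aaaacatcctggCACGTGctccgactccag
Hes1 RBPJ and SMAD words: actccgcgTTCCCACGGTCTGggtcttatt

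The first Hey1 and Hey2 sites are at nearly the same place in the transcript and share 14 bases, gcagcGTGGGAAag. This run was found in the promoters of Hey1 and Hey2 and of no other protein-coding gene. Since it was read from these sites and is long, its absence from other promoters says little. GTGGGAA on the strand of the gene within the first 50 bases was found in 109 promoters (0.488%). Both sites lay inside SMAD4 peaks, at both stages for Hey1 and at E10.5 for Hey2.

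At Hes1 the RBPJ and SMAD words inside the gene abut with no base between them. The site lay in the E9.5 peak of rank 230 and in the E10.5 peak of rank 110. Such words at most 10 bases apart were found in the central 300 bp of 3 E9.5 peaks (0.145%), 1 of them this Hes1 peak, and in 0.162% of E10.5 peaks. In the central 1000 bp they were found in 0.482% and 0.453%. The Hes1 peak of rank 110 was not among the E10.5 peaks counted in either window, since the site lies further from its centre. The shared 14 bases and this spacing were looked for after the words had been seen. A match of letters is not a shown binding site.

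**Figure D4:**
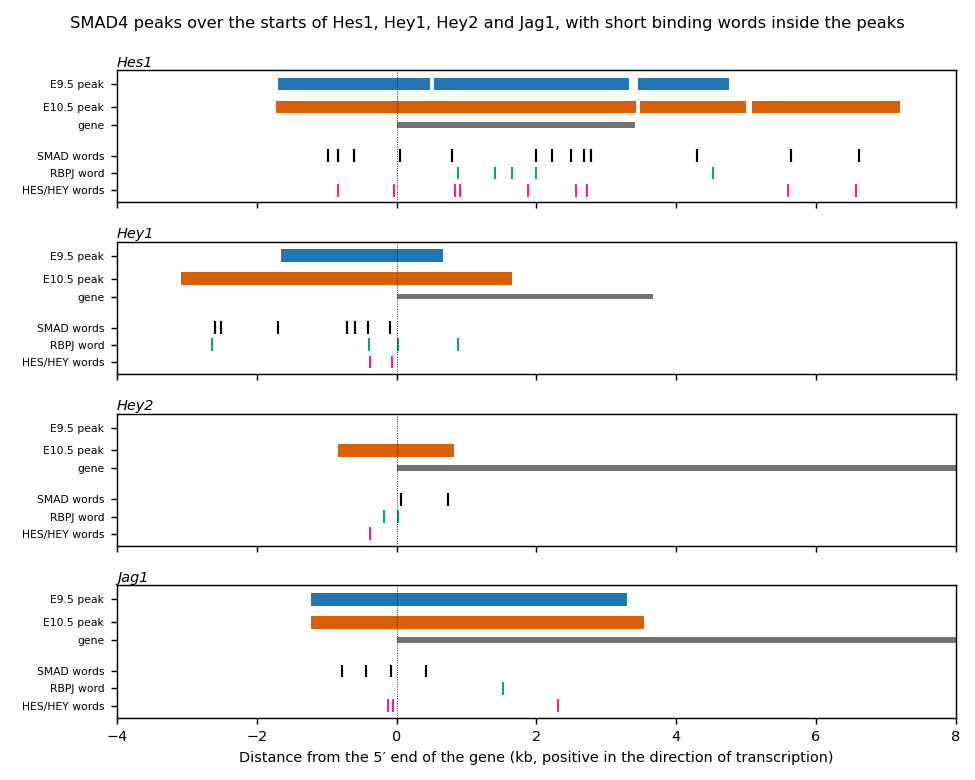
Extent of the SMAD4 peaks over the starts of Hes1, Hey1, Hey2 and Jag1 (E9.5 in blue, E10.5 in orange, gene in grey) against the distance from the 5′ end in kb, with ticks for words inside the peaks: CAGACC and GGCGCC (SMAD, black), GTGGGAA (RBPJ, green), and CACGTG and CACGCG (HES/HEY, magenta). Hey1 and Hey2 each have an RBPJ tick just after the 5′ end, and at Hes1 an RBPJ and a SMAD tick coincide about 2 kb into the gene.

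The other genes of the pathway were described by a list of 44 (other ligands and receptors, processing enzymes, nuclear cofactors, inhibitors and other Hes genes). Of these, 11 (25%) had a peak at E9.5 and 39 (88.6%) at E10.5, against the 20.5% and 52.9% of all protein-coding genes. At E9.5 the 44 genes were thus close to the share of all genes, and at E10.5 they were above it. An overlapping pair was found for 4 of them (9.09%), against 5.52% of all protein-coding genes.

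The best-placed of the other genes was Notch3, the receptor of vascular smooth muscle. Its 5′ end was covered at both stages, with a score of 139 and rank 113 at E9.5 and a score of 199.8 and rank 45 at E10.5. The other genes with a pair were Maml1 and Maml3, coactivators of the RBPJ complex, and Spen, a corepressor partner of RBPJ. The paired peaks had scores of 67.0 (E9.5) and 93.9 (E10.5) at Maml1, 41.9 and 54.3 at Maml3, and 55.5 and 76.1 over the 5′ end of Spen. The best E10.5 peak of Spen, at -60.6 kb, was not part of its pair and had a score of 148.5. Among the genes without a pair, the best-scored peaks were those of Hes7, a clock gene of the somites, at E9.5 (score 71.9, rank 439) and Dtx3, a Deltex-family ubiquitin ligase, at E10.5 (score 130.6, rank 179).

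Among the other 6 ligands, 2 had a peak at E9.5 and all 6 had one at E10.5, with no pair. Among the 5 other Hes genes, 1 had a peak at E9.5 and all 5 had one later, and no peak covered the 5′ end of any of them. Over the 44 genes, 2 had their 5′ end covered at E9.5 and 8 had it covered at E10.5, against the 2.11% and 11.3% of all protein-coding genes.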

How the data were processed

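SMAD4-3xFLAG ChIP-seq samples (2 per stage) were compared with input DNA by the authors. Reads were trimmed, aligned to mm9 with Bowtie 1.1.0 (unique matches) and peaks were called per replicate with MACS 1.4 at a permissive threshold. The authors merged replicates with MSPC and kept peaks found in both. The deposited lists give an interval and a score per peak, the unit of which they do not name. Deeper libraries can lengthen a list and widen its peaks, and neither depth nor replicate values were used here.

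Intervals were read as 1-based mm9 coordinates and sequences from the mm9 (NCBIM37) genome. Overlap required 1 bp, and ties shared a rank. Words were searched with exact matches on both strands in the 300 bp around the peak centre, since no summits are listed, with Python 3.11.15, NumPy 2.4.6 and pysam 0.24.0. The counting was tested on simulated data. All 8 genes were named with all peaks. Of the 44 other pathway genes, those with a pair and the 3 best-scored per stage were named. The 8 genes, the lists and the words were chosen with earlier results of these data known. Alternatives were the distance, the start of any transcript in place of the 5′ end of the gene, a score of 100 or more, an E10.5 list of equal length, nearest-gene assignment, the definition of a pair and a 1000 bp word window. The input samples have no values of their own here.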

Additional observations from a re-analysis of the deposited data

How the results depend on the processing

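Of 58 values recomputed under alternatives, 31 stayed within 1.5 times the reported value and 27 did not. With a score of 100 or more, the genes with an E9.5 peak fell from 6 to 2, the peaks from 12 to 3 and from 18 to 5, and the overlapping pairs from 5 to 1. A reciprocal overlap of 50% and centres within 250 bp each left 3 pairs. The 18 E10.5 peaks became 28 within 200 kb, 10 within 50 kb and 6 within 10 kb, 9 with nearest-gene assignment and 9 with the E10.5 list shortened to the length of the E9.5 list. The 12 E9.5 peaks became 6 within 10 kb. A 1000 bp window, which holds more of each word by its length, gave CAGAC in 11 E9.5 and 15 E10.5 peaks (92.9% and 91.3% of the lists), CAGACC in 5 and 10 (48.8% and 51.8%), TGGGAA in 10 and 12 (62.6% and 62.4%), GTGGGAA in 6 and 8 (21.9% and 22.4%), CACGTG in 4 E9.5 peaks and, as in the 300 bp window, 0 E10.5 peaks (16.2% and 17.6%), and CACGCG and GGCGCC in 5 E10.5 peaks each (20.8% and 27.8%). The shortened E10.5 list was also applied to the differences in top percent of the 5 pairs, a choice made after seeing the data: Jag1 stayed within 1.5 times (-62.6 points), whereas Hey1 gave 24.4 (5.12 as reported) and the Hes1 pairs 89.5 (27.5), 4.05 (0.524) and -5.79 (-9.32), with no change of sign. Distances from the start of any transcript left the counts of genes, peaks and pairs as reported. The number of genes with an E10.5 peak stayed within 1.5 times under each alternative tried. No paired analysis was possible because the lists hold no value per replicate, so no replicate could be left out either. The score limits comparisons of level between the lists, and the unknown depth limits what the absence of a peak can show.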
